A study of Mus musculus with 2 samples.

Results

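Border macrophages of the mouse brain were followed through 9 marker genes, namely *Mrc1*, *Pf4*, *Cd163*, *Lyve1*, *F13a1*, *Cbr2*, *Folr2*, *Stab1* and *Dab2*, out of 32285 genes in the deposited count tables. All 9 were found by their symbols. Their transcripts were counted as unique molecular identifiers (UMIs, 1 per captured RNA molecule) in 4 classes of cells, and the first class holds the cells with at least 1 *Mrc1* UMI and at least 1 *Pf4* UMI. These Mrc1+ Pf4+ cells numbered 341 of 7032 cells in the *Disc1* WT/WT library and 63 of 7817 cells in the *Disc1* LI/LI library. The genes were chosen from earlier results of these same libraries, and the cells by their *Mrc1* and *Pf4* UMIs, so that the levels in the class are a description only.

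Macrophages at the borders of the brain live along blood vessels, in the meninges and in the choroid plexus, outside the tissue that microglia occupy. They take up material from blood, cerebrospinal fluid and perivascular spaces through scavenger receptors, and part of them present antigen on MHC class II molecules. They are usually told from microglia by the mannose receptor and related uptake receptors, whereas microglia carry *P2ry12* and *Tmem119*.

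Brains of 6 male *Disc1* WT/WT mice and 6 male *Disc1* LI/LI littermates, all 23 weeks old, were pooled by genotype, which gave 1 single-cell library per genotype. LI stands for locus impairment, an altered *Disc1* allele that the second group carried in 2 copies and that the study treats as equivalent to a knockout. Both pools were dissociated with actinomycin D, which limits transcription during dissociation, and CD45lowCD11b+ cells were sorted, a gate set for microglia that can pass or lose other myeloid cells. The samples carry the label microglia, so the marker genes describe cells inside that gate and not all border macrophages of the brain.

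With 1 library per genotype no difference between genotypes was tested, and genotype, pool, sort and library cannot be told apart. Intervals in brackets are 95% intervals for counting error only. The *Disc1* WT/WT library held 33601957 UMIs in 7038 barcodes, with a median of 4234.5 UMIs per kept cell, and the *Disc1* LI/LI library held 47731571 UMIs in 7834 barcodes, with a median of 4566. *Disc1* itself had 642 UMIs in the first and 22 in the second, and in Mrc1+ Pf4+ cells 27 and 0, where a count of 0 allows up to 8.54 counts per 1000000 UMIs. The libraries shared 12 barcodes, none of them in Mrc1+ Pf4+ cells. The 2 libraries stood apart in the cells they held. Microglia (*P2ry12*, *Gpr34*, *Tmem119*, *Siglech*, *Fcrls* and *Olfml3* at 0.5% or more of a cell's UMIs) made up 86.1% of *Disc1* WT/WT against 25.6% of *Disc1* LI/LI cells. Ly6c2+ Ccr2+ cells, which carry the genes of inflammatory monocytes, were 47 and 1362 cells. They also held RNA of listed progenitor genes, with 537 and 24217 UMIs of *Elane* beside 882 and 23715 of *Ly6c2*. The same list holds *Kit*, with 1 and 33 UMIs there, and *Cd34*, with 8 and 171. Cells outside the Mrc1+ Pf4+, microglia and Ly6c2+ Ccr2+ classes with 5% or more of UMIs from *S100a8* and *S100a9* form the neutrophil gate. It held 102 and 3403 cells. Another 3 and 7 cells met this cut but stayed in the Mrc1+ Pf4+ class.

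The share of Mrc1+ Pf4+ cells was 4.85% (4.36 to 5.38) in *Disc1* WT/WT against 0.806% (0.620 to 1.03) in *Disc1* LI/LI. The gap depended on the denominator. Among Mrc1+ Pf4+ cells and microglia alone the shares were 5.33% (4.80 to 5.91) and 3.06% (2.36 to 3.89), and among cells outside the neutrophil gate they were 4.92% (4.42 to 5.46) and 1.43% (1.10 to 1.82). Mrc1+ Pf4+ cells were about as deep in both libraries, with medians of 4367 and 4542 UMIs, against 4262 and 3825 in microglia. Of the Mrc1+ Pf4+ cells, 139 in *Disc1* WT/WT against 13 in *Disc1* LI/LI also met the microglia gate, 0 and 3 met the *Ly6c2* and *Ccr2* gate, and 202 and 48 met neither. Doublets were not removed, and their part in the overlap was not tested.

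The cells just inside the gate were poorer in the other markers than the class as a whole. In the 28 *Disc1* WT/WT cells with exactly 1 *Mrc1* and 1 *Pf4* UMI a mean of 1.43 of the 7 other members was detected, against 3.47 over all 341 cells and 5.78 in the 76 cells with 10 or more UMIs of both. Just outside it, 42 *Disc1* WT/WT cells had 3 or more *Mrc1* UMIs and no *Pf4*, with a mean of 1.40 members, and 39 had 3 or more *Pf4* UMIs and no *Mrc1*, with a mean of 2.08. The *Disc1* LI/LI library had 3 cells at 1.33 with 1 UMI of each and 7 cells at 5.29 with 10 or more of both, and 13 cells at 1.85 with 3 or more *Pf4* UMIs and no *Mrc1*. Around the microglia gate, cells with 0.4% to 0.5% of UMIs from its genes (94 and 100 cells) held a mean of 0.628 and 0.590 members, and those with 0.5% to 0.6% (163 and 105 cells) held 0.552 and 0.581. Ccr2+ cells with exactly 2 *Ly6c2* UMIs, just inside the Ly6c2+ Ccr2+ class, were 2 and 101 cells, and those with exactly 1 were 2 and 125.

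The 9 genes lie on 8 chromosomes of the mm10 genome (GRCm38, positions and overlaps from GENCODE vM21). *Mrc1* spans chr2:14229392-14332057 on the plus strand and *Pf4*, a short gene, chr5:90772435-90773383 on the plus strand. *Cd163* lies at chr6:124304656-124330527 (plus), *Lyve1* at chr7:110850607-110863239 (minus), *Folr2* at chr7:101839988-101857194 (minus), *F13a1* at chr13:36867178-37050244 (minus), *Cbr2* at chr11:120729489-120732114 (minus), *Stab1* at chr14:31139013-31168641 (minus) and *Dab2* at chr15:6299788-6440712 (plus). Opposite-strand genes that were also counted overlap *F13a1* (2 antisense genes), *Folr2* (1 antisense gene), *Dab2* (1 antisense gene) and *Stab1* (*Nt5dc2*). The 3′ kit keeps the strand of the transcript.

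Promoters were compared because the genes are detected together in the same cells, and RefSeq promoter sequences (GRCm38.p6, 250 bases before to 50 bases after the start) were found for 8 of the 9, with no entry used for *Lyve1*. Words of 3 kinds were searched on both strands. GAGGAA, the core bound by the myeloid factor PU.1, occurred in 6 of 8, against 28.3% of 32851 promoters of the same length. TGCTGA, a core of sites for MAF factors, occurred in 4 of 8, against 19.5%, and TGANTCA, the AP-1 word, in 0 of 8, against 7.81%. A match describes letters and is not a bound site. The stretch ahead of the gene is shown for the pair that defines the cells and for the 2 members found most widely outside them, *Stab1* and *F13a1*, in the direction of transcription, with the first 2 words in capitals, GAGGAA being read as TTCCTC where it lies on the other strand.
Mrc1: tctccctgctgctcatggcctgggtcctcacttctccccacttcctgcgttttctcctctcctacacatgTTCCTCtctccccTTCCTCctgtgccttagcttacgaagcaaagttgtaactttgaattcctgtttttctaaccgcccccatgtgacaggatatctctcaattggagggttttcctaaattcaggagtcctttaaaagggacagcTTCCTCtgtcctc
Pf4: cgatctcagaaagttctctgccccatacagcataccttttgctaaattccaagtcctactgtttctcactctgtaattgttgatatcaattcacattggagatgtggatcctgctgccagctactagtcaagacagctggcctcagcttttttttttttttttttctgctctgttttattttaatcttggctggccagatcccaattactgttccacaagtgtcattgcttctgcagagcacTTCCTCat
Stab1: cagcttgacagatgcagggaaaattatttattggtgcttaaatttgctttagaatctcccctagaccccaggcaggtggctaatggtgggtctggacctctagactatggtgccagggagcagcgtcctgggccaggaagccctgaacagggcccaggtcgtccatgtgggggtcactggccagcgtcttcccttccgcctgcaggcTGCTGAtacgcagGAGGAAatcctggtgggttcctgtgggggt
F13a1: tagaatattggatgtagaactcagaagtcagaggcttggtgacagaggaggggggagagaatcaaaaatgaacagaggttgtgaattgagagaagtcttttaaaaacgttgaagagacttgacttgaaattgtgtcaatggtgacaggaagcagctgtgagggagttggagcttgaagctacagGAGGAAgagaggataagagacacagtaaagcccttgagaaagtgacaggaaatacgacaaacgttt
The *Mrc1* stretch is chr2:14229164-14229391 (plus strand) and holds 3 GAGGAA words, all on the minus strand. That of *Pf4* is chr5:90772185-90772434 (plus) and holds 1, next to the start. That of *Stab1* is chr14:31168642-31168891 (minus) and holds 1 GAGGAA and 1 TGCTGA close together, and that of *F13a1* is chr13:37050245-37050494 (minus) and holds 1 GAGGAA. The other members with GAGGAA were *Cbr2* and *Dab2*, and *Cd163* held none of the 3 words.

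*Mrc1* encodes the mannose receptor, which takes up glycoproteins. Its level, in counts per 1000000 UMIs of the summed cells of a class (CPM), was 1587 (1528 to 1649) in the Mrc1+ Pf4+ cells of *Disc1* WT/WT and 805 (714 to 905) in those of *Disc1* LI/LI. Outside them it was highest in cells of the MHC class II gate (*Cd74*, *H2-Aa*, *H2-Ab1* and *H2-Eb1* at 1% or more of UMIs, outside the other classes), with 150 (125 to 177) and 37.8 (29.3 to 47.9). In microglia it was 10.7 and 9.11, from 307 and 78 UMIs. In the neutrophil gate, cells that should lack the gene, 0 and 7 *Mrc1* UMIs were counted.

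*Pf4* encodes the chemokine CXCL4, known from platelets and also made by tissue macrophages. In Mrc1+ Pf4+ cells its level was 1969 (1903 to 2038) in *Disc1* WT/WT against 1767 (1631 to 1911) in *Disc1* LI/LI, followed by the MHC class II gate with 84.9 (66.9 to 106) and 33.9 (25.9 to 43.5). Microglia held 6.73 (5.82 to 7.75) and 3.50 (2.36 to 5.00) CPM. Only part of the listed platelet genes were at 0. Of 10 platelet and megakaryocyte genes, *Ppbp*, *Itga2b*, *Gp1bb*, *Gp1ba* and *Tubb1* had 0 UMIs in the Mrc1+ Pf4+ cells of both libraries. In all other cells the highest of these, *Itga2b*, was at 0.125 and 1.04 CPM, so their zeros say little about the class. The 10 genes together came to 30.8 and 25.6 CPM in the class, of which *Gp9* gave 26.1 and 17.1.

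*Cd163*, *Lyve1*, *Cbr2* and *Folr2* had their highest levels in Mrc1+ Pf4+ cells in both libraries. *Cd163*, the scavenger receptor for haemoglobin bound to haptoglobin, reached 196 CPM (176 to 218) there in *Disc1* WT/WT against 88.2 (59.9 to 125) in *Disc1* LI/LI. It was detected in 33.4% (28.4 to 38.7) and 28.6% (17.9 to 41.3) of those cells, and in 0.264% and 0% of microglia, where 0 of 1998 cells allows a share of up to 0.150%. In cells thinned to 2000 UMIs each, with shallower cells left out (55 and 5 of the Mrc1+ Pf4+ cells), the shares were 23.1% (18.3 to 28.4) and 12.1% (4.99 to 23.3). The intervals of the 2 libraries overlapped for both shares and not for the level.

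*Lyve1*, a receptor for the matrix polysaccharide hyaluronan, reached 397 CPM (368 to 429) and 219 (173 to 274) in Mrc1+ Pf4+ cells. It was detected in 32.0% (27.0 to 37.2) and 20.6% (11.5 to 32.7) of them, and in 24.8% and 12.1% after thinning. In the neutrophil gate of *Disc1* LI/LI 89 *Lyve1* UMIs lay in 73 of 3403 cells (2.15%, 1.69 to 2.69), below *Stab1* (111 UMIs) and *F13a1* (99 UMIs) and above *Pf4* (37 UMIs) and *Mrc1* (7 UMIs). These cells had a median of 3977 UMIs, close to that of Mrc1+ Pf4+ cells, and 0.858% of them kept a *Lyve1* UMI after thinning. In *Disc1* WT/WT the same gate held 5 *Lyve1* UMIs in 4 of 102 cells. No annotated gene overlaps *Lyve1*.

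*Cbr2*, a carbonyl reductase, stood at 188 CPM (168 to 210) and 139 (103 to 184) in Mrc1+ Pf4+ cells, and was detected in 38.7% (33.5 to 44.1) and 28.6% (17.9 to 41.3) of them. *Folr2*, the folate receptor of macrophages, stood at 124 (108 to 142) and 68.3 (43.8 to 102), in 26.4% (21.8 to 31.4) and 17.5% (9.05 to 29.1) of cells. In microglia both genes were at or below 1.12 CPM in each library. After thinning, *Cbr2* was seen in 24.1% and 15.5% of Mrc1+ Pf4+ cells and *Folr2* in 18.9% (14.5 to 23.9) and 3.45% (0.420 to 11.9).

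*F13a1* encodes the A subunit of coagulation factor XIII, a transglutaminase made by monocytes and macrophages. It was the member shared with Ly6c2+ Ccr2+ cells, where its level was 1176 CPM (1086 to 1272) in *Disc1* WT/WT against 920 (904 to 937) in *Disc1* LI/LI. That was above its level in Mrc1+ Pf4+ cells, 667 (629 to 707) and 347 (288 to 414). It was detected in 83.0% (69.2 to 92.4) and 91.2% (89.6 to 92.6) of Ly6c2+ Ccr2+ cells, and in 67.7% (62.5 to 72.7) and 61.9% (48.8 to 73.9) of Mrc1+ Pf4+ cells. Among the other cells of *Disc1* LI/LI that met no gate (647 cells) it was at 220 (203 to 237). In the progenitor gate of *Disc1* LI/LI it was at 78.5 (63.7 to 95.7). That gate takes cells with *Mpo*, *Elane* and *Prtn3* at 0.5% or more of UMIs, outside the classes and the neutrophil gate (44 cells). In microglia of the 2 libraries *F13a1* was at 2.58 (2.03 to 3.24) and 8.06 (6.27 to 10.2).

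*Stab1*, the scavenger receptor stabilin-1, was the member shared with microglia. It was detected in 45.5% (44.3 to 46.8) of *Disc1* WT/WT against 40.6% (38.4 to 42.8) of *Disc1* LI/LI microglia, at 148 (143 to 152) and 141 (133 to 149) CPM. In Mrc1+ Pf4+ cells its level was 499 (466 to 534) and 225 (178 to 280), in 70.7% (65.5 to 75.5) and 55.6% (42.5 to 68.1) of cells. After thinning, the shares were 24.4% and 22.8% in microglia and 56.3% and 32.8% in Mrc1+ Pf4+ cells, against 2.33% and 0.923% in the neutrophil gate. The share in microglia was therefore above that in neutrophils, which should lack the gene.

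*Dab2* encodes an adaptor of clathrin-coated vesicles that brings receptors into the cell. Its level was 819 (777 to 864) CPM in the Mrc1+ Pf4+ cells of *Disc1* WT/WT and 273 (221 to 334) in those of *Disc1* LI/LI, where it was detected in 78.0% (73.2 to 82.3) and 57.1% (44.0 to 69.5) of cells. The MHC class II gate came next in *Disc1* WT/WT, with 218 (188 to 251) and 54.5% (46.6 to 62.3) of 165 cells. In *Disc1* LI/LI the same gate held 27.2 (20.1 to 36.0), in 27 of 300 cells. Microglia had 19.9 (18.3 to 21.6) and 8.88 (6.99 to 11.1), and Ly6c2+ Ccr2+ cells of *Disc1* LI/LI 0.659 (0.301 to 1.25). The plot of levels by class sets these orders side by side.

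**Figure D1:**
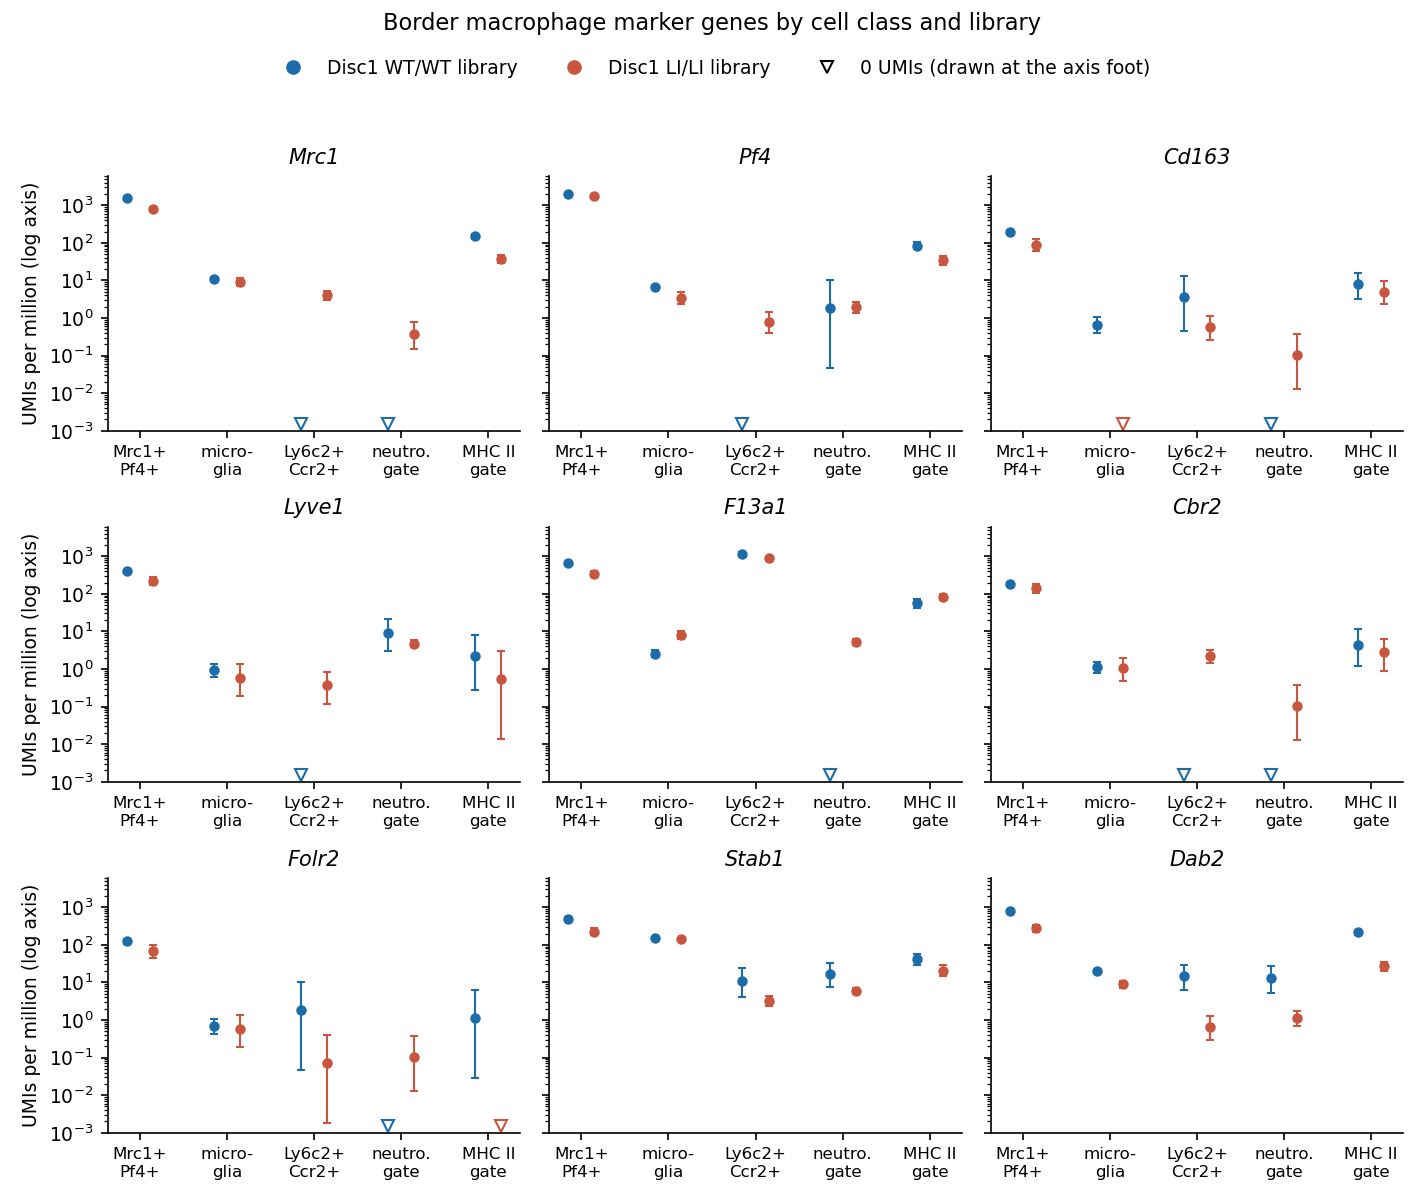
Level of each marker gene in CPM (log axis) in 5 classes of cells, with blue points for the *Disc1* WT/WT library, red points for the *Disc1* LI/LI library and bars for exact Poisson 95% intervals. Open triangles at the foot of the axis stand for 0 UMIs. Mrc1+ Pf4+ cells are highest for 8 of the 9 genes, and *F13a1* is higher in Ly6c2+ Ccr2+ cells.

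Relative to its own level in Mrc1+ Pf4+ cells, microglia of *Disc1* WT/WT held between 0.237% (*Lyve1*) and 29.6% (*Stab1*) of a member's level, and without *Stab1* no more than 2.43% (*Dab2*). The *Disc1* LI/LI range was 0% (*Cd163*) to 62.7% (*Stab1*), and without *Stab1* no more than 3.25% (*Dab2*). In Ly6c2+ Ccr2+ cells *F13a1* stood at 176% and 265%, and every other member at or below 2.25% and 1.58%. In the neutrophil gate no member passed 3.37% or 2.60%. In the MHC class II gate the highest was *Dab2* at 26.6% in *Disc1* WT/WT and *F13a1* at 24.0% in *Disc1* LI/LI. *F13a1* also stood at 63.2% in the *Disc1* LI/LI cells that met no gate and at 22.6% in its progenitor gate.

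Where the transcripts lay also depended on how many cells of each class a library held. In *Disc1* WT/WT more than 50% of the UMIs of 8 members came from the 341 Mrc1+ Pf4+ cells, from 58.3% for *F13a1* to 671 of 706 UMIs for *Lyve1*. *Stab1* was the exception, with 16.2% there and 81.3% in microglia. The same held in *Disc1* LI/LI for 2 members, *Pf4* with 77.7% and *Folr2* with 61.5%. Of the *F13a1* UMIs of *Disc1* LI/LI, 0.885% came from Mrc1+ Pf4+ cells and 91.1% from Ly6c2+ Ccr2+ cells, and 89 of its 178 *Lyve1* UMIs came from the neutrophil gate. Over all kept cells of a library, *F13a1* stood at 57.5 CPM in *Disc1* WT/WT against 289 in *Disc1* LI/LI, while *Mrc1* stood at 94.0 and 12.1. A sum over all cells would thus show opposite differences for these 2 markers, although both were lower in the Mrc1+ Pf4+ cells of *Disc1* LI/LI.

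The members were detected together in single cells. A mean of 3.47 of the 7 members other than *Mrc1* and *Pf4* had a UMI in Mrc1+ Pf4+ cells of *Disc1* WT/WT, and 2.70 in those of *Disc1* LI/LI. In microglia the means were 0.556 and 0.469, in Ly6c2+ Ccr2+ cells 1.00 and 0.977, and in the neutrophil gate 0.118 and 0.0785. At least 3 of the 7 were found in 64.5% (59.2 to 69.6) and 50.8% (37.9 to 63.6) of Mrc1+ Pf4+ cells, against 0.446% and 0.300% of microglia and 0% and 0% of the neutrophil gate, where 0 of 102 and 0 of 3403 cells allow shares of up to 2.94% and 0.0882%. All 7 were found in 33 and 2 cells and none in 16 and 8 cells. The intervals of the 2 libraries overlapped for at least 3 of 7. With cells thinned to 2000 UMIs, at least 3 of 7 were found in 46.5% (40.6 to 52.5) of 286 *Disc1* WT/WT cells and 15.5% (7.35 to 27.4) of 58 *Disc1* LI/LI cells, intervals that do not overlap. With cells thinned to 1000 UMIs the shares were 31.1% (26.0 to 36.5) and 15.9% (7.88 to 27.3), and the intervals overlapped. Each thinning was a single random draw, and the intervals do not cover the spread between draws.

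**Figure D2:**
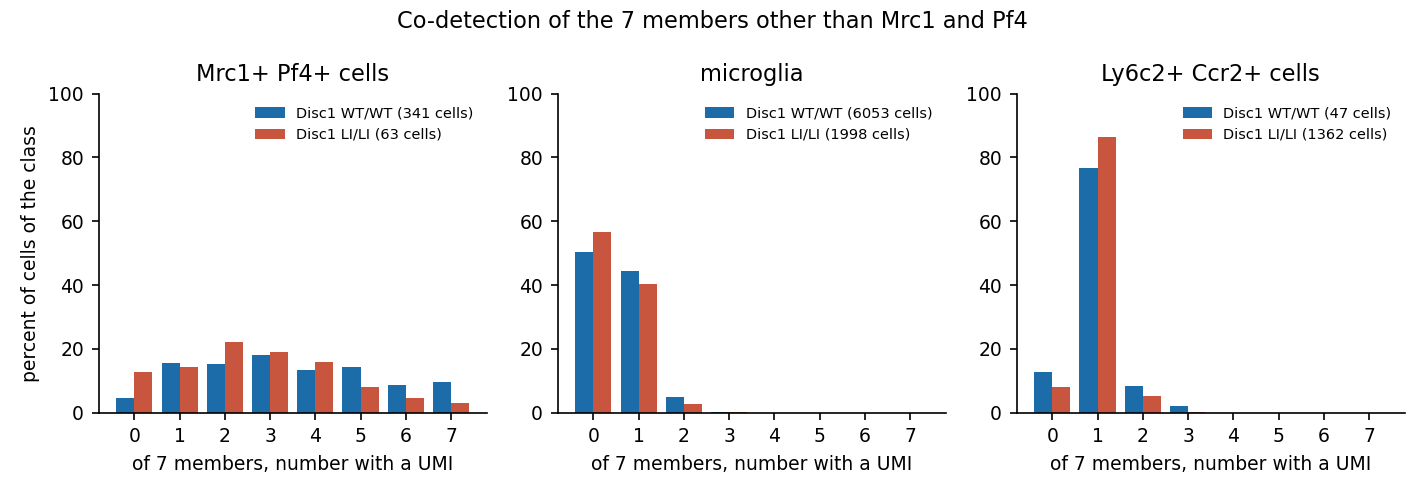
Percent of cells by the number of the 7 members other than *Mrc1* and *Pf4* with at least 1 UMI, for Mrc1+ Pf4+ cells, microglia and Ly6c2+ Ccr2+ cells, with blue bars for *Disc1* WT/WT and red bars for *Disc1* LI/LI. Mrc1+ Pf4+ cells spread from 0 to 7 members, microglia mostly hold 0 or 1, and Ly6c2+ Ccr2+ cells mostly hold 1.

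The co-detection also ran the other way. Of the 264 *Disc1* WT/WT cells with at least 3 of the 7 members, 220 (83.3%) were Mrc1+ Pf4+ cells, and of the 47 such *Disc1* LI/LI cells 32 (68.1%) were. Among the 44 *Disc1* WT/WT cells outside the class, 9 had *Mrc1* and 24 had *Pf4*, and among the 15 of *Disc1* LI/LI 3 and 4 did. These outside cells were 0.658% (0.478 to 0.882) and 0.193% (0.108 to 0.319) of all cells outside the class. Choosing cells by at least 3 of the 7 members, without *Mrc1* or *Pf4*, gave 3.75% of *Disc1* WT/WT against 0.601% of *Disc1* LI/LI cells.

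Among the 21 pairs of the 7 members, a cell with the first gene held the second more often than a cell without it in all 21 pairs in *Disc1* WT/WT and in 19 pairs in *Disc1* LI/LI. The size of a gap depends on which gene comes first, and genes were taken in the order of the opening list. The widest gap in *Disc1* WT/WT was for *Lyve1* and *Folr2*. *Folr2* was detected in 54.1% of cells with *Lyve1* and 13.4% of cells without it, a difference of 40.8 points. The narrowest was for *Lyve1* and *Dab2*, with 88.1% and 73.3%. In *Disc1* LI/LI, *Cd163* and *Cbr2* led in this order, with *Cbr2* in 55.6% of 18 cells with *Cd163* and 17.8% of the rest. With the order turned round, a wider gap was that of *Cbr2* in 63.6% of cells with *Folr2* and 21.2% of the rest. *Stab1* was the exception there, with 55.6% both in cells with *Cbr2* and in cells without it, and 54.5% and 55.8% in cells with and without *Folr2*. Deeper cells hold more of every gene, and the part of depth in these gaps was not tested.

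**Figure D3:**
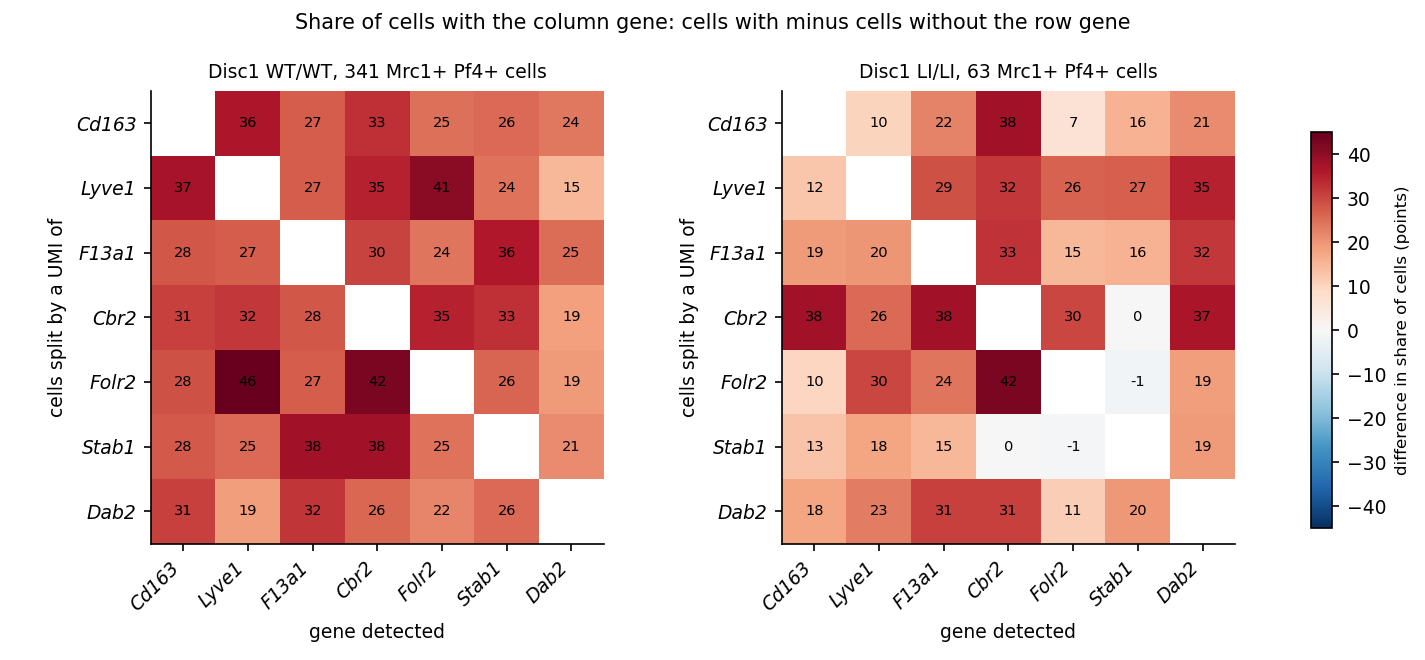
For each pair of the 7 members in Mrc1+ Pf4+ cells, the share of cells with a UMI of the column gene in cells that hold the row gene minus the share in cells that do not, in percentage points, with red for a higher and blue for a lower share. All pairs are above 0 in *Disc1* WT/WT, whereas the *Disc1* LI/LI pairs of *Stab1* with *Cbr2* and with *Folr2* lie at 0 or just below.

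The class held 341 cells in *Disc1* WT/WT against 63 in *Disc1* LI/LI. With fewer cells, the richest cell holds a larger share of UMIs even where they are spread alike. The shares of the richest cell therefore do not show which library had its UMIs spread more widely. In *Disc1* WT/WT the single richest cell held between 1.78% (*Stab1*) and 10.5% (*Folr2*) of a member's UMIs in the class. The richest *Disc1* LI/LI cell held 4.99% of *Pf4*, but 27.3% of *Lyve1* (21 of 77 UMIs), 24.5% of *Cbr2* and 29.2% of *Folr2*. Cells with 5 or more UMIs of *Dab2* made up 32.0% of *Disc1* WT/WT against 6.35% of *Disc1* LI/LI cells of the class, and those with 5 or more of *Pf4* 56.6% and 58.7%. Within the class, the share of cells rich in *Dab2* was thus lower in *Disc1* LI/LI. *Pf4* UMIs helped to choose the cells, so its shares are a description only.

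Mrc1+ Pf4+ cells fell along *Lyve1* and MHC class II, the molecules that present antigen to T cells. In *Disc1* WT/WT, 109 cells held *Lyve1* and 232 did not, with medians of 4889 and 4122.5 UMIs. MHC class II genes made up 1% or more of UMIs in 9.17% (4.49 to 16.2) of the cells with *Lyve1* and in 51.7% (45.1 to 58.3) of those without. Among 13 and 50 *Disc1* LI/LI cells these shares were 30.8% (9.09 to 61.4) and 56.0% (41.3 to 70.0), intervals that overlap. Over the whole class, 130 of 341 and 32 of 63 cells reached this 1%.

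The other members went with *Lyve1* in *Disc1* WT/WT. *F13a1* stood at 1210 CPM (1120 to 1304) in cells with *Lyve1* and 395 (360 to 434) in cells without, *Folr2* at 290 (247 to 338) and 41.8 (30.7 to 55.5), *Cd163* at 396 (346 to 452) and 96.0 (78.7 to 116), and *Dab2* at 1346 (1252 to 1446) and 555 (513 to 601). The C-type lectin gene *Cd209f* stood at 513 (456 to 576) and 33.8 (23.9 to 46.3). *Cd74*, the invariant chain of MHC class II, went the other way, with 2078 (1961 to 2201) and 12963 (12754 to 13175), and *Ccr2*, the receptor that draws monocytes from blood, had 3 UMIs in cells with *Lyve1* and 187 in cells without. The order was the same in *Disc1* LI/LI for *Dab2*, with 687 (501 to 919) and 178 (133 to 234), and for *Cbr2*, with 397 (259 to 582) and 80.4 (51.0 to 121). Its intervals overlapped for *F13a1*, *Cd163* and *Stab1*. Cells were split by a *Lyve1* UMI, so deeper cells fall more often into the first group.

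**Figure D4:**
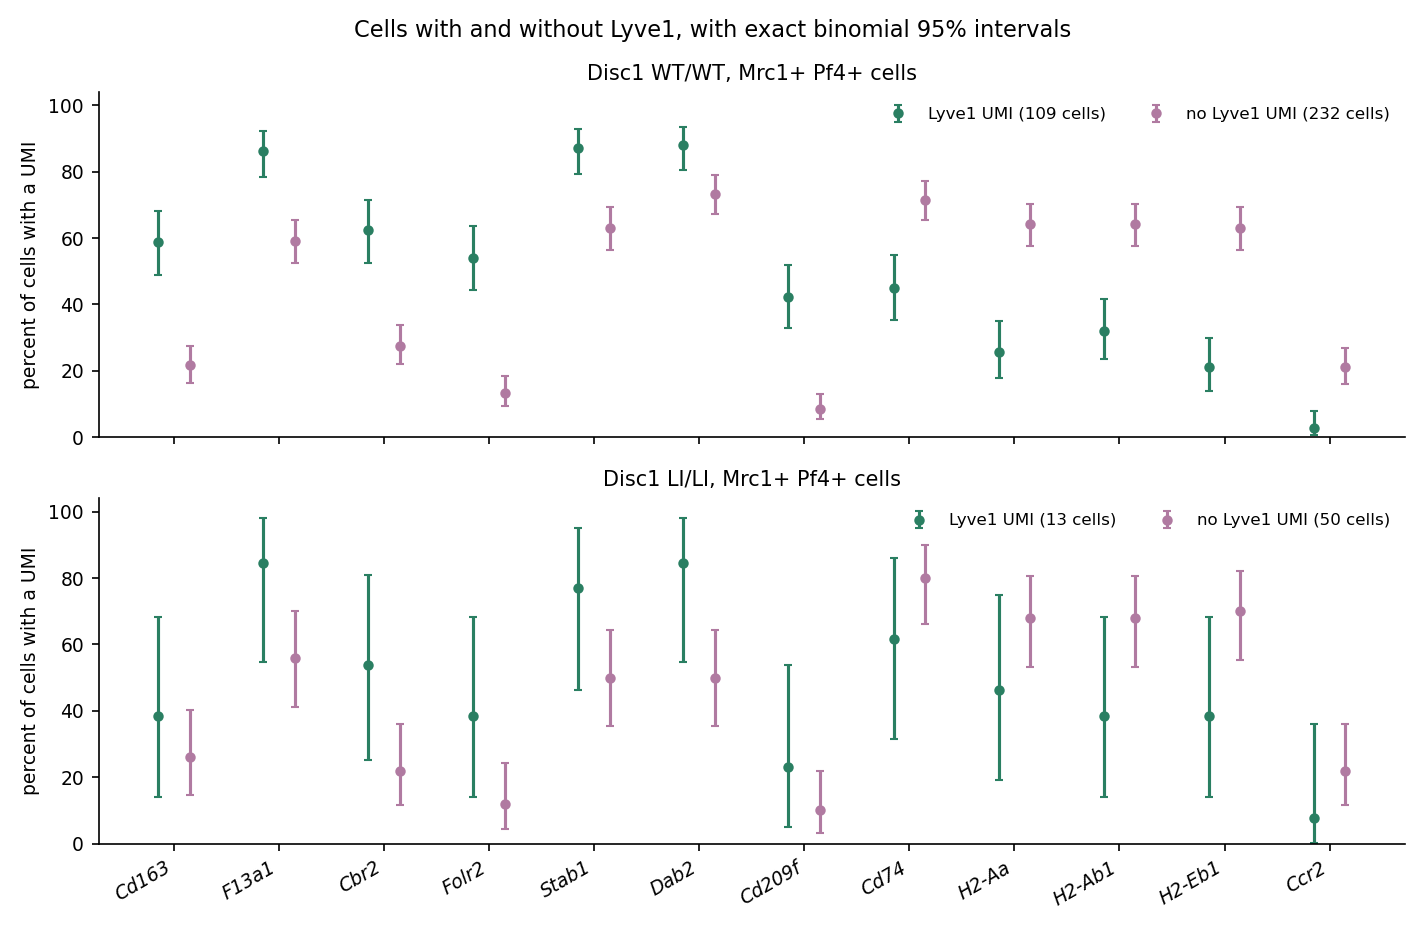
Percent of Mrc1+ Pf4+ cells with a UMI of each gene, with green points for cells that hold *Lyve1* and purple points for cells that do not, bars for exact binomial 95% intervals, the upper panel for *Disc1* WT/WT and the lower for *Disc1* LI/LI. In *Disc1* WT/WT the members and *Cd209f* are more often found with *Lyve1*, and the MHC class II genes and *Ccr2* without it. The *Disc1* LI/LI intervals are wide.

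Beyond the 9 markers, genes were ranked by the smaller of their log2 ratios in the 2 libraries between Mrc1+ Pf4+ cells and all other cells, among the 2359 genes with at least 20 UMIs in the class in each library. At least 4-fold higher levels were found for 2.44% of 7491 genes in *Disc1* WT/WT and 3.20% of 2378 genes in *Disc1* LI/LI. Of the members, 8 passed this fold in each library and 7 in both, which the choice of the genes and cells fixes in part and from which nothing is read. *Stab1* missed it in *Disc1* WT/WT, at a log2 ratio of 1.87, and *F13a1* in *Disc1* LI/LI, at 0.27, since Ly6c2+ Ccr2+ cells are among the other cells there.

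The 12 genes that led this ranking and are not markers were *Cd209f*, *Cd209g*, *Ccl8*, *Igf1*, *Ccl7*, *Ms4a7*, *Apoe*, *Cp*, *Sash1*, *Mgl2*, *Cd38* and *Clec4n*. *Cd209f*, a lectin of the DC-SIGN family, stood at 194 CPM against 0.658 in all other cells of *Disc1* WT/WT, and at 108 against 0.0845 in *Disc1* LI/LI. Its neighbour in the family, *Cd209g*, stood at 68.7 against 0.282 and at 56.9 against 0. The chemokine genes *Ccl8* and *Ccl7* stood at 216 and 227 in *Disc1* WT/WT and at 128 and 117 in *Disc1* LI/LI, against at most 4.07 elsewhere. *Igf1*, a growth factor, stood at 127 and 62.6 against 1.91 and 0.782. *Apoe*, the apolipoprotein of brain lipid transport, stood at 20847 and 17510 against 910 and 622. The lectin gene *Mgl2* was at 300 and 401 against 15.7 and 16.2.

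Of 26 further genes listed as border macrophage genes, 16 of 26 with enough UMIs were at least 4-fold higher in the class in *Disc1* WT/WT, 11 of 21 in *Disc1* LI/LI and 8 in both, and none was 4-fold lower. Over all genes with enough UMIs, 2.44% and 3.20% were at least 4-fold higher. The list median was a log2 ratio of 3.29 and 2.08, beside −0.14 and 0.31 over all genes. This list was drawn up with earlier results of these data known. It holds *Cd209f*, *Ms4a7*, *Apoe*, *Mgl2* and *Clec4n* of the ranking above, so nothing is read from its counts or median. *Siglec1* stood at 29.0 against 0.407 and at 22.8 against 0.549, and *Clec10a* at 147 against 2.63 and at 85.4 against 20.5. Of 15 scavenger and uptake receptors measured, 6 of 10 and 1 of 5 with enough UMIs were 4-fold higher, beside the same shares of all genes. The same limit holds for this list, which shares *Cd36* and *Colec12* with the first. *Mertk*, *Scarb2* and *Lrp1* had log2 ratios of −0.88, −0.49 and −0.40 in *Disc1* WT/WT and of 0.88, 1.03 and 0.57 in *Disc1* LI/LI. *Cd209b* stood at 34.9 against 0.219 and at 39.8 against 0.211, and *Msr1* at 81.1 against 4.26 and at 54.1 against 11.1, while *Marco* had 0 UMIs in both. *Clec7a* was not analysed here.

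Genes of macrophages in other tissues were partly present. *Vcam1* was at 273 and 230 CPM, against 11.8 and 23.3 in all other cells, and *Timd4*, a receptor for dead cells, at 45.6 (77 UMIs) and 14.2 (5 UMIs). *Clec4f*, which marks Kupffer cells of the liver, had 0 UMIs. Endothelial genes came to 27.8 and 8.54 CPM over 7 genes, and fibroblast and mural genes to 5.33 and 5.69 over 7 genes. The 6 microglia genes of the gate summed to 5416 CPM in Mrc1+ Pf4+ cells of *Disc1* WT/WT, against 10818 in all other cells. In *Disc1* LI/LI they summed to 3042 against 2117. Microglia were 86.1% of all kept *Disc1* WT/WT cells against 25.6% of those of *Disc1* LI/LI. The other cells thus differ in kind between the libraries, and nothing about the class is read from the change of direction. The sum in microglia alone was not computed. Among *Disc1* WT/WT cells *P2ry12* was found in 78.0% of those with *Lyve1* and 68.1% of those without. The label of border macrophages thus rests on the markers, and microglia RNA was found with them in most cells. Its source was not tested.

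All 9 members were lower in the Mrc1+ Pf4+ cells of *Disc1* LI/LI than in those of *Disc1* WT/WT, as were 66.8% of the 7931 genes with at least 20 UMIs in sum, and under TMM scaling *Pf4* was not lower but stood at a log2 ratio of 0.14. The median log2 ratio was −0.94 over the members and −0.26 over all these genes. UMIs of *Mrc1* and *Pf4* helped to choose the cells, so their ratios are a description only. The counts and the median over the members include both, and without them all 7 other members were still lower. A 2-fold lower level was met by 3 members and by 15.2% of genes, and a 2-fold higher level by 0 members and 3.00% of genes. TMM scaling moves every ratio up by 0.3, so ratios were set beside the median of all genes, and 8 members lay below it. That median does not show whether the drop was particular to the members. Of the 12 leading genes that are not markers, all but *Mgl2* were lower in *Disc1* LI/LI too. *Igf1* fell from 127 to 62.6 CPM, *Ccl7* from 227 to 117 and *Cd209f* from 194 to 108. *Apoe* fell less, from 20847 to 17510, and *Mgl2* rose from 300 to 401. Whether the members fell more than other genes high in the class was not tested.

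The endocytic adaptor gene *Dab2* was the member farthest below the median of all genes, at percentile 4.93. It stood at 273 against 819 CPM, a log2 ratio of −1.58 (−1.90 to −1.29). The scavenger receptor genes *Stab1* and *Cd163* both stood at −1.15 (−1.50 to −0.82 and −1.73 to −0.62), on 79 and 31 UMIs in *Disc1* LI/LI. *Mrc1* was at −0.98 (−1.16 to −0.80), *F13a1* at −0.94 (−1.22 to −0.67), *Folr2* at −0.87 (−1.54 to −0.25) and *Lyve1* at −0.86 (−1.22 to −0.52). *Cbr2* was at −0.43 (−0.89 to 0.0081), an interval that holds both 0 and the median of all genes. *Pf4* was at −0.16 (−0.28 to −0.033), above that median. The intervals of *Pf4* and *Folr2* hold the median of all genes too. Neighbours in this order had overlapping intervals, while the interval of *Dab2* lay wholly below those of *Mrc1*, *F13a1*, *Lyve1*, *Cbr2* and *Pf4*.

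In microglia 7 of the 8 members with at least 20 UMIs in sum were below 0, as were 65.7% of genes. With 0.5 counts added, their median was −0.19, the same as that of all 12273 genes tested there. The single ratios that follow have no added counts. *Stab1* was at −0.070 (−0.16 to 0.023), with 4237 and 1206 UMIs, and *Mrc1* at −0.23 (−0.61 to 0.13). *Pf4* was at −0.94 (−1.55 to −0.38), on 193 and 30 UMIs, *Lyve1* at −0.69 (−2.42 to 0.71), and *Cd163* had 19 and 0 UMIs. *Dab2* was lower here too, at −1.16 (−1.53 to −0.82), from 19.9 to 8.88 CPM, and *F13a1* was higher, at 1.64 (1.15 to 2.14), from 2.58 to 8.06. The *Disc1* LI/LI library held 1362 Ly6c2+ Ccr2+ cells against 47, and whether their RNA had a part in the *F13a1* level of microglia was not tested. In Ly6c2+ Ccr2+ cells *F13a1* stood at −0.35 (−0.47 to −0.24), close to the median of −0.34 over 10536 genes.

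**Figure D5:**
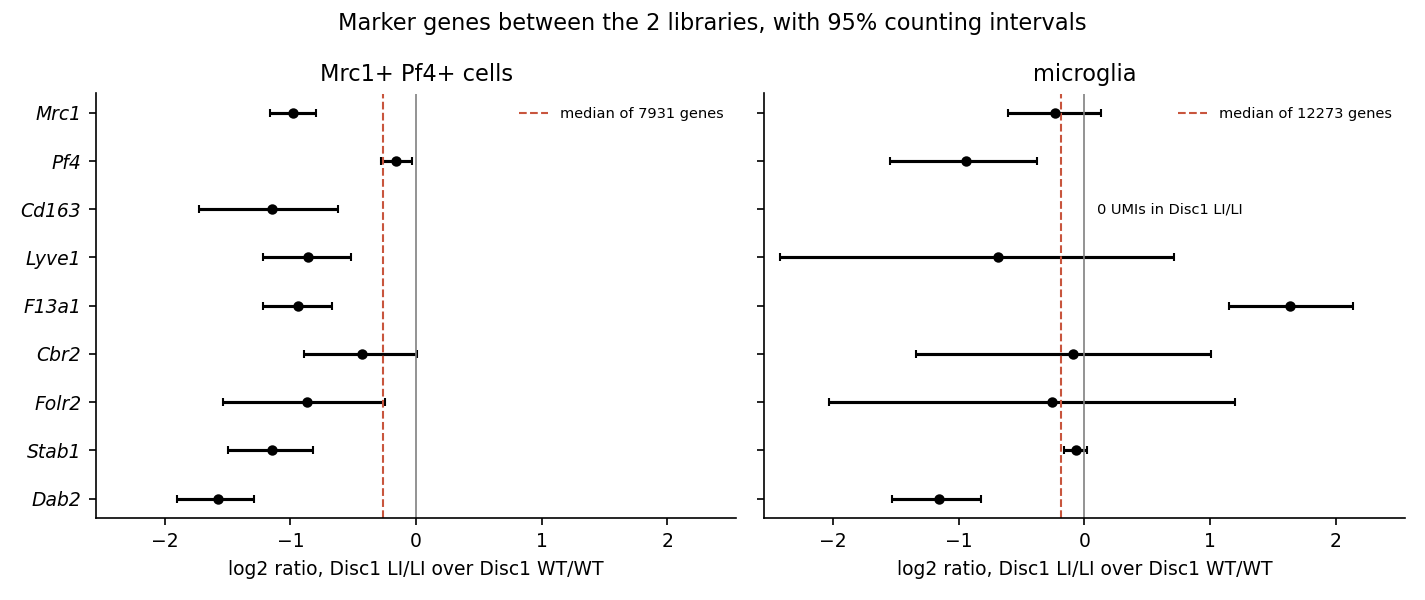
Log2 ratio of CPM, *Disc1* LI/LI over *Disc1* WT/WT, for each marker gene in Mrc1+ Pf4+ cells (left) and microglia (right), with bars for 95% intervals that cover counting error only, and the median of all genes tested as a dashed line. In Mrc1+ Pf4+ cells *Dab2* lies lowest and *Pf4* nearest to 0, and in microglia *Stab1* lies near 0 and *Dab2* and *Pf4* lowest. *Cd163* has 0 UMIs in *Disc1* LI/LI microglia.

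The class was not made up alike in the libraries, and 4 splits of it were compared. No median or share below 0 over all genes is given for these splits. The medians and counts of the members in them are therefore a description, and nothing particular to the members is read from them. Among cells with MHC class II at 1% or more of UMIs (130 and 32 cells) the median over the members was −0.77, with 8 of 9 below 0, and among the rest (211 and 31 cells) it was −0.81, with 9 below. *Dab2* was at −1.58 (−2.08 to −1.11) and −1.40 (−1.82 to −1.01) in these 2 groups. *Folr2* was at −3.20 (−8.55 to −0.62) in the first, on 31 and 1 UMIs. In the second it was at −0.22 (−0.92 to 0.41), against −0.87 over the class. *Lyve1* was at −0.90 (−2.03 to 0.071) in the first and −0.44 (−0.83 to −0.078) in the second. Among cells that did not meet the microglia gate (202 and 50 cells) the median was −1.24, and *Pf4* stood at −0.59 (−0.73 to −0.45).

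Neutrophil RNA moved with the library. *S100a8* and *S100a9* gave 0.198% of the UMIs of Mrc1+ Pf4+ cells in *Disc1* WT/WT against 2.61% in *Disc1* LI/LI, and 3 and 7 cells had 1% or more. Without these cells the median over the members was −0.79, with *Dab2* at −1.53 (−1.86 to −1.21), *Mrc1* at −0.80 (−0.99 to −0.62) and *Pf4* at −0.050 (−0.18 to 0.081). Of 9 neutrophil genes the summed level was 2474 CPM against 32075.

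B lineage RNA did so too. Among 1712 genes at 100 CPM or more in at least 1 library, Mrc1+ Pf4+ cells had their highest ratios between the libraries, *Disc1* LI/LI over *Disc1* WT/WT, for *Ly6d*, *Iglc3*, *Cd79a*, *Chil3* and *Plac8*. The first 3 belong to B lineage cells, and 5 of 63 *Disc1* LI/LI cells held 97.8% of their UMIs, against 1 of 341 *Disc1* WT/WT cells with 5 or more. Without these cells *Dab2* stood at −1.51, *Lyve1* at −0.74 and *Pf4* at −0.13. *Chil3* and *Plac8*, of monocytes and neutrophils, had 72 and 49 UMIs in *Disc1* LI/LI, of which a single cell held 41.7% and 49.0%. The lowest ratios were those of *Arsb*, *Larp4*, *Mtss1*, *Havcr2* and *AY036118*, from 142 to 25.6 CPM for *Arsb*, a lysosomal sulfatase. The part of other cell types in the differences between the libraries was not tested beyond these splits.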

How the data were processed

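For each of the 2 libraries the authors deposited a table of UMI counts by gene and by cell, made per the labels with Cell Ranger 6.1.2 and STAR on mm10, with Seurat 3.0.1 used later. The kit is given as v3 or v3.1, and not which library had which. The count tables hold whole numbers and no cell annotation. Barcodes with fewer than 200 genes or over 10% mitochondrial UMIs were dropped here (6 and 17), and the other cells were put in the first class met of Mrc1+ Pf4+ cells, microglia, Ly6c2+ Ccr2+ cells (2 or more Ly6c2 and 1 or more Ccr2 UMIs) and other cells. No clustering was done, no doublet caller was run and no doublets were removed.

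UMIs were summed per class and given as CPM, with exact Poisson intervals, and shares of cells with exact Clopper-Pearson intervals, both at 95% and for counting error only. A count of 0 was read as allowing 3 counts. The log2 ratios have intervals from the exact binomial split of the 2 counts. With 1 library per genotype no p-value was computed. Shares were repeated in cells thinned to 2000 UMIs by a single random draw. The marker genes and the gene lists were chosen with earlier results of these data known. Genes named beside the markers were the 12 leading non-members with at least 20 UMIs in both libraries, the 5 lowest and 5 highest ratios, and genes of the lists, some of which were picked as examples after their values were seen. Scripts were tested on simulated counts. TMM factors came from edgeR 4.0.16 in R 4.3.3, and all else from Python 3.11.15 with scipy 1.17.1, numpy 2.4.6, matplotlib 3.10.9 and pandas 2.3.3.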

Additional observations from a re-analysis of the deposited data

How the results depend on the processing

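Every value above rests on 1 library per genotype, and no alternative adds a replicate. No paired analysis was possible because each genotype has 1 library, and for the same reason no library could be left out. Values are given for Disc1 WT/WT, then Disc1 LI/LI, for the share of Mrc1+ Pf4+ cells, the summed level of the 9 members in CPM, and the share of the class with at least 3 of 7 members. Asking for 2 or more UMIs of both genes gave 3.40% and 0.461%, 8169 and 5240, and 79.9% and 63.9%. Leaving out cells that also met another gate gave 2.87% and 0.614%, 8851 and 4385, and 1 member with most of its UMIs inside the class in Disc1 LI/LI. Choosing cells by at least 3 of the 7 members gave 3.75% and 0.601%, a summed level of 7587 in Disc1 WT/WT, and 4 such members in Disc1 LI/LI. The last share has no value there by construction. Without the top 5% of cells by UMIs the level in Disc1 WT/WT was 7248, and *Stab1* was found in 44.2% of its microglia. TMM scaling gave 5810 and 4363 and turned the ratio of *Pf4* to 0.14, and a mean over cells gave 7928 and 4998. Without cells at 1% or more *S100a8* and *S100a9*, chosen after seeing the data, the level in Disc1 LI/LI was 4360. Leaving out the cells with B lineage RNA was also chosen after seeing the data. Thinning to 2000 UMIs gave at least 3 of 7 in 46.5% and 15.5%, *Stab1* in 24.4% and 22.8% of microglia, and *F13a1* in 75.7% of Ly6c2+ Ccr2+ cells of Disc1 LI/LI. Thinning to 1000 gave 31.1% and 15.9%, 13.9% and 12.2%, and 66.0% and 55.2%. A microglia gate of 1% put *Stab1* in 47.7% of Disc1 WT/WT microglia. Over 12 settings the ratio of *Dab2* ran from −1.77 to −1.28, that of *Mrc1* from −1.23 to −0.68 and that of *Pf4* from −0.55 to 0.14. Of the single ratios 86 stayed within the interval of the reported value, 12 moved out of it and 1 changed sign. Of the levels of single members 127 stayed within that interval and 71 moved out of it. The causes were not tested.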
